A study of Mus musculus with 9 samples.

Results

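The contactin, contactin-associated protein (Cntnap) and Dscam adhesion genes examined here were 10 listed genes, Cntn1, Cntn3, Cntn4, Cntn5, Cntn6, Cntnap1, Cntnap2, Cntnap4, Dscam and Dscaml1. They were chosen by name and found by their Ensembl identifiers among the 37620 genes of the count tables. All 10 passed the filter on low counts, which 15069 genes passed. The samples are ribosome-associated RNA from parvalbumin inhibitory neurons (PV INs) of hippocampal CA3/CA2, isolated with anti-HA beads from PV-Cre; Rpl22 HA/HA mice. In these mice Cre made under the parvalbumin gene switches on a hemagglutinin (HA) tag on the ribosomal protein Rpl22, so tagged ribosomes mark cells that have expressed parvalbumin. Both groups carried the Cre and the tag and received a lentivirus in the dentate gyrus (DG) at 2 months of age, with a non-target shRNA in the 5 shNT samples and an shRNA against Ablim3 in the 4 shRNA samples. Tissue was taken after 2 weeks, and each sample pooled 6 male and female mice. The virus was placed in DG mossy fiber neurons, which project to the CA3/CA2 cells that were sampled, and the comparison asks which ribosome-bound RNAs of PV INs differ once this mossy fiber brake on PV IN inputs is lowered. No uninjected group was analysed here, and pooling leaves no values of single mice. The labels do not say whether samples of a group came from separate cohorts. The p-values set differences between groups against the spread between these pooled samples.

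Contactins are immunoglobulin-superfamily proteins held at the cell surface by a lipid anchor, and they bind partners on the same membrane and on neighbouring cells. Cntnap proteins, also called Caspr proteins, are transmembrane relatives of neurexins: Cntnap1 pairs with Cntn1 beside nodes of Ranvier, Cntnap2 pairs with Cntn2 where Kv1 potassium channels cluster along the axon, and Cntnap4 is known from interneuron synapses. Dscam and Dscaml1 are large immunoglobulin-superfamily receptors that bind their own kind and are known for self-avoidance of neurites and for the matching of synaptic partners.

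The stretches of 250 bases before the transcription start are shown for the members whose groups did not overlap, Dscam and Cntn3, and for Cntnap2, whose group means were nearly equal. They are RefSeq sequences of the build GRCm38.p6, written 5′ to 3′ on the gene's strand, with each CG pair in capitals.
Dscam, chr16:97170736-97170985 (- strand): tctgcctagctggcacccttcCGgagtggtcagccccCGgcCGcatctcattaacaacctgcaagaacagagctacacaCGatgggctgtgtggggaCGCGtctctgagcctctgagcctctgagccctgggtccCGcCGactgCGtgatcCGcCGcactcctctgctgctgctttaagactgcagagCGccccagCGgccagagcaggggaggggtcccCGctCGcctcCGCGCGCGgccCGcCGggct
Cntn3, chr6:102464668-102464917 (- strand): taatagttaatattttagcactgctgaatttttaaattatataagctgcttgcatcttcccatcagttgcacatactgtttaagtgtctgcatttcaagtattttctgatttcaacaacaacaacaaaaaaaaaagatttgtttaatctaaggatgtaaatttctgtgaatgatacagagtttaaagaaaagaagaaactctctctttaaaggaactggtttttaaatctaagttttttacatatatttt
Cntnap2, chr6:45059811-45060060 (+ strand): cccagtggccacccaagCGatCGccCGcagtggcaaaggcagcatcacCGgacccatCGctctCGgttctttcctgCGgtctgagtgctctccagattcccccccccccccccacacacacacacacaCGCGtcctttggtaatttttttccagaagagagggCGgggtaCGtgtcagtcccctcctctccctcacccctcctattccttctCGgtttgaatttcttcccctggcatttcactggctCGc
These windows differ widely in base composition. The Dscam window held 21 CG pairs at a GC content of 68.0%, the Cntn3 window held 0 at 26.4%, and the Cntnap2 window held 13 at 59.6%, while the median over 32851 windows was 6 CG pairs and 52.4% GC. RefSeq windows were matched for 7 of the 10 members, and the remaining members were Cntnap1, Cntnap4 and Dscaml1. Among the other matched members, CG pairs numbered 24 in Cntn5, 7 in Cntn1, 3 in Cntn6 and 2 in Cntn4. The Cntn4 window (chr6:106118515-106118764) lies inside the span of that gene, so its letters precede an internal start and not the outermost one. TGACAG, the core word of MEIS factors, was searched on either strand and was found in the Cntn5 window alone among the members, 134 bases before the start, against 15.9% of all windows. GGGCGG, a word of SP1-type factors, was found on either strand in the Cntnap2 window alone, against 32.7% of all windows. The cyclic AMP response word TGACGTCA, held by 1.55% of all windows, was in none of the 7. A match or its absence describes these letters only.

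Counts on genes ranged from 18281719 to 34578837 per sample, and the members' own counts ranged from 55 to 11912 in a sample. Levels are given as CPM, counts scaled to the size of the library, normalized with TMM, a scaling that assumes most genes do not differ. shNT replicate 2 and shRNA replicate 4 had the highest shares of their groups in uniquely aligned reads that fell outside annotated exons. This share was 10.97%, 18.6%, 9.76%, 9.91% and 11.3% in shNT replicates 1 to 5, and 19.8%, 12.5%, 12.4% and 27.2% in shRNA replicates 1 to 4. Sample names carry 1 of 2 prefixes, YTa31 (shNT replicates 1 to 3 and shRNA replicates 1 to 3) and YTa32 (the others). What the prefixes mark is not stated in the labels, and values within YTa31 are given beside the pooled ones. YTa32 holds only 1 shRNA sample and was not fitted alone. Ablim3, the target in DG, had 16.9 ± 5.16 CPM in shNT (SD, n = 5) and 18.5 ± 3.42 CPM in shRNA samples (SD, n = 4). These values come from PV INs of CA3/CA2 and not from the DG, where the virus was placed, so they do not measure the knockdown. The study reported lower Ablim3 in the DG by qRT-PCR. Pvalb, the gene of parvalbumin, had 998 ± 287 CPM in shNT (SD, n = 5) and 526 ± 163 CPM in shRNA samples (SD, n = 4), and its log2 fold change was -0.92 (edgeR, FDR = 0.0678). In bulk samples, fewer cells of a type and less RNA per cell cannot be told apart.

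With edgeR's quasi-likelihood test, none of the 10 members passed the study's threshold, a change of 1.5-fold or more with an FDR under 0.05. The members with the lowest p-values, Dscam, Cntn3, Cntn5 and Dscaml1, had higher mean levels in shRNA samples. Among all 15069 genes tested, 1.75% passed that threshold, 1.74% being higher in shRNA samples and 0.0133% lower (edgeR quasi-likelihood test, Benjamini-Hochberg adjustment over all genes). Other tools called more genes altogether. Called higher were 2 of 10 members by edgeR's likelihood ratio test, against 11.2% of all genes, 2 by its exact test, against 11%, 2 by DESeq2, against 10.2%, and 5 by limma voom, against 15.3%. At an FDR under 0.1 and 1.5-fold, 2 members were higher, Dscam and Cntn3, against 12.7% of all genes, and 0 were lower, against 4.26%. At an unadjusted p under 0.05, 4 of 10 members were higher, against 20.7% of all genes, and 0 were lower, against 13.4%. Each shRNA sample exceeded each shNT sample in 2 members, again Dscam and Cntn3, against 8.97% of all genes, and all lay below in 0 members, against 6.68%. Log2 fold changes were above 0 in 8 members, against 57.9% of all genes, and their median was 0.31 against 0.11 over all genes tested.

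**Figure D1:**
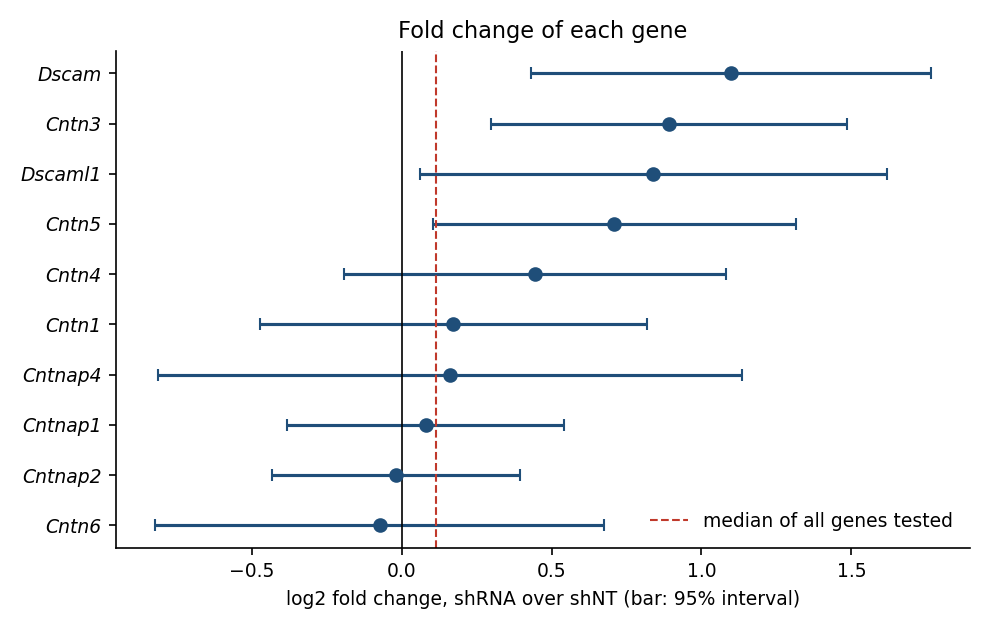
Log2 fold change of each member, shRNA over shNT, with its 95% interval from the edgeR quasi-likelihood fit (points and bars). Intervals of Dscam, Cntn3, Dscaml1 and Cntn5 lie above 0, and those of the other 6 members span 0.

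Dscam showed the largest difference of the 10 members. Dscam (ENSMUSG00000050272, mm9 chromosome 16 from 96813686 to 97392359, minus strand) was measured at 21.6, 13.95, 22.2, 8.78 and 8.75 CPM across shNT replicates 1 to 5, and at 24.7, 32.9, 43.1 and 28.4 CPM across shRNA replicates 1 to 4. The groups did not overlap, with the shRNA samples higher, and shNT replicates 4 and 5, of the YTa32 set, were the lowest. Means were 15.1 ± 6.59 CPM in shNT (SD, n = 5) and 32.3 ± 7.96 CPM in shRNA samples (SD, n = 4), a 2.14-fold difference and 1.10 on the log2 scale (standard error 0.30, 95% interval 0.43 to 1.77). Its unadjusted p was 0.00392 and its FDR 0.0630, so the difference was not called (edgeR quasi-likelihood test). The call depended on the test and on 1 library: edgeR's likelihood ratio test gave an FDR of 0.0116, DESeq2 one of 0.0118, and the quasi-likelihood fit without shNT replicate 1, which called 6.68% of all genes higher, one of 0.0434. Within the YTa31 set alone the log2 fold change was 0.77 (FDR = 0.421, edgeR), and with the name set as a block it was 1.08 (FDR = 0.0431, edgeR), in a fit that called 2.5% of all genes higher.

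Dscaml1, the paralog of Dscam, also had a higher mean in shRNA samples, but its groups overlapped. Dscaml1 (ENSMUSG00000032087, mm9 chromosome 9 from 45235288 to 45561343, plus strand) was measured at 36.8, 16.9, 43.9, 15.6 and 12.95 CPM across shNT replicates 1 to 5, and at 34.6, 52.6, 57.1 and 36.8 CPM across shRNA replicates 1 to 4. The overlap came from shNT replicates 1 and 3, which reached the level of the lower shRNA samples, while shNT replicates 2, 4 and 5 lay below all of them. Means were 25.2 ± 14.1 CPM in shNT (SD, n = 5) and 45.3 ± 11.3 CPM in shRNA samples (SD, n = 4), and the log2 fold change was 0.84 (standard error 0.36, 95% interval 0.06 to 1.62, FDR = 0.125, edgeR quasi-likelihood test). Its ratio of highest to lowest shNT sample was 3.39, and only 2.07% of the 9495 genes averaging at least 10 CPM had a larger one.

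**Figure D2:**
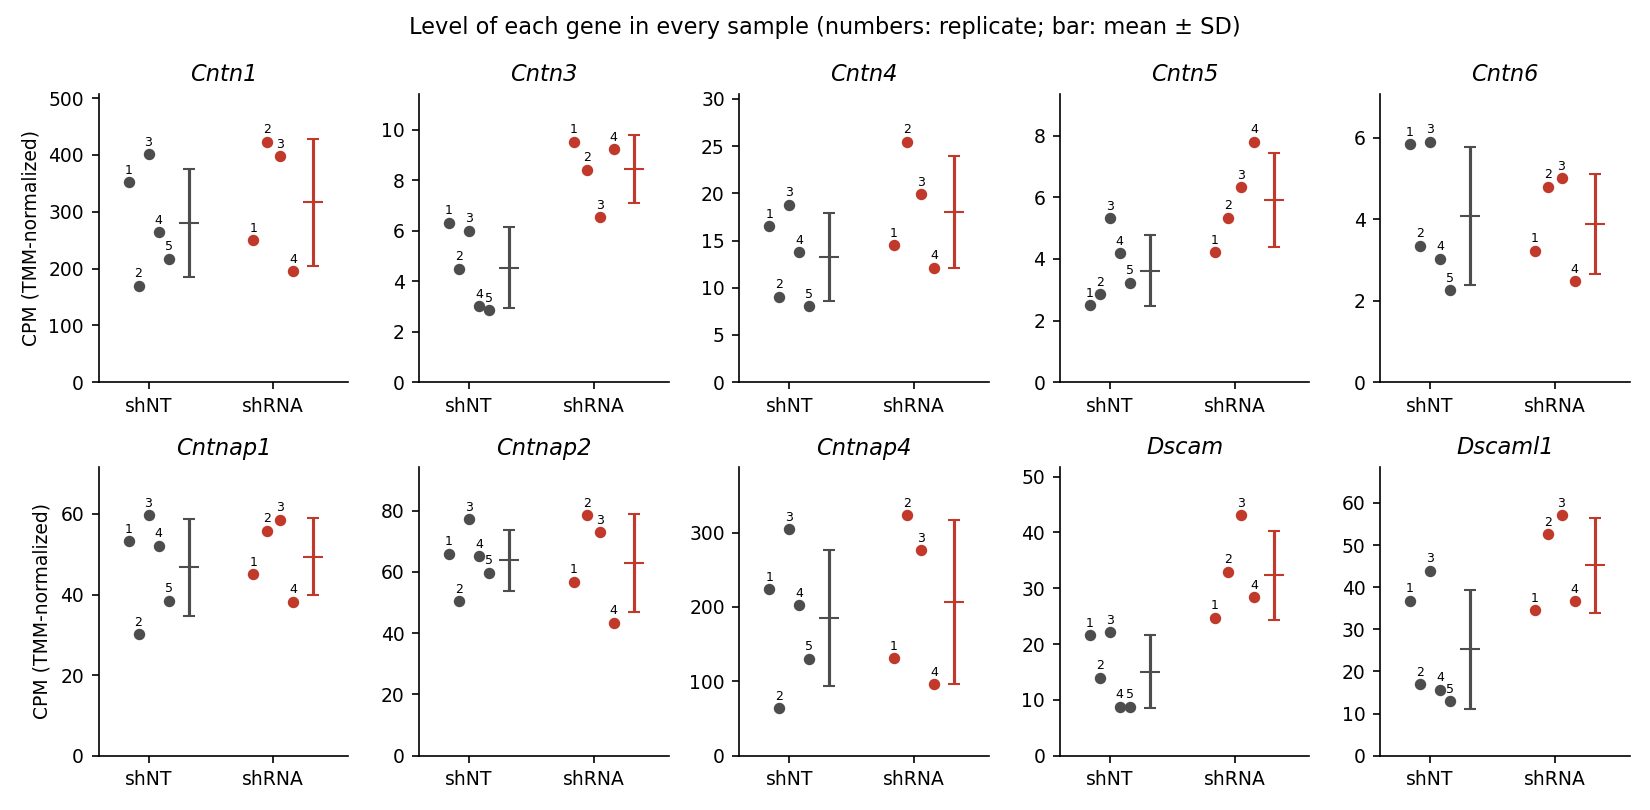
Normalized CPM of each of the 10 members in every sample, with the group mean and SD (5 shNT and 4 shRNA samples, each panel on its own axis). In the Dscam and Cntn3 panels the shRNA points all lie above the shNT points, and in the other panels the groups overlap.

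Among the contactins, Cntn1, Cntn3, Cntn4 and Cntn5 had higher means in shRNA samples, and only Cntn3 and Cntn5, both of low abundance, had intervals that excluded 0. Cntn1, the most abundant, had a small difference with a wide interval. Cntn3 (ENSMUSG00000030075, mm9 chromosome 6 from 102113300 to 102414661, minus strand), a contactin of the forebrain with few known partners, was measured at 6.33, 4.50, 6.00, 3.03 and 2.85 CPM across shNT replicates 1 to 5, and at 9.54, 8.42, 6.54 and 9.25 CPM across shRNA replicates 1 to 4. The groups did not overlap, although shRNA replicate 3 lay only just above shNT replicate 1. Means were 4.54 ± 1.62 CPM in shNT (SD, n = 5) and 8.44 ± 1.35 CPM in shRNA samples (SD, n = 4), and the log2 fold change was 0.89 (standard error 0.27, 95% interval 0.30 to 1.49, FDR = 0.0683, edgeR). Within the YTa31 set it was 0.51 (FDR = 0.480, edgeR). Without shNT replicate 1 it was 1.04 and passed (FDR = 0.0471, edgeR), and it also passed with the likelihood ratio test (FDR = 0.0312) and DESeq2 (FDR = 0.0231).

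Cntn5, a contactin known from synapse formation in sensory pathways (ENSMUSG00000039488, mm9 chromosome 9 from 9660891 to 10904775, minus strand), was measured at 2.49, 2.85, 5.32, 4.19 and 3.23 CPM across shNT replicates 1 to 5, and at 4.22, 5.33, 6.33 and 7.80 CPM across shRNA replicates 1 to 4. The groups overlapped only through shNT replicate 3 and shRNA replicate 1. Its log2 fold change was 0.71 (standard error 0.28, 95% interval 0.10 to 1.31, unadjusted p = 0.0253, FDR = 0.103, edgeR quasi-likelihood test). Cntn6, a paralog that acts as a Notch ligand (ENSMUSG00000030092, mm9 chromosome 6 from 104442784 to 104813400, plus strand), had 5.83, 3.35, 5.90, 3.03 and 2.26 CPM and then 3.22, 4.80, 5.01 and 2.48 CPM in the same order of samples. Here the ranges of the groups overlapped widely, with a log2 fold change of -0.07 (95% interval -0.82 to 0.68, FDR = 0.893, edgeR), which leaves room for a change of 1.5-fold in either direction.

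Cntn4, which binds amyloid precursor protein and takes part in axon targeting (ENSMUSG00000064293, mm9 chromosome 6 from 105627654 to 106649304, plus strand), was measured at 16.5, 9.04, 18.8, 13.8 and 8.03 CPM across shNT replicates 1 to 5, and at 14.5, 25.5, 19.9 and 12.1 CPM across shRNA replicates 1 to 4. Only shRNA replicates 2 and 3 lay above all shNT samples, and the log2 fold change was 0.45 (standard error 0.29, 95% interval -0.19 to 1.08, FDR = 0.285, edgeR). Cntn1 (ENSMUSG00000055022, mm9 chromosome 15 from 91881596 to 92172398, plus strand), the contactin of paranodes, had 351.5, 170.1, 401, 264 and 217 CPM and then 249.7, 423, 397.5 and 195 CPM in that order. Its means of 281 ± 94.9 CPM in shNT (SD, n = 5) and 316 ± 111 CPM in shRNA samples (SD, n = 4) differed by less than the spread within either group (log2 fold change 0.17, 95% interval -0.47 to 0.82, FDR = 0.694, edgeR).

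The Cntnap genes showed no difference between groups larger than their spread, and samples of 1 group lay furthest apart in Cntnap4. Cntnap2 (ENSMUSG00000039419, mm9 chromosome 6 from 45010060 to 47251368, plus strand), the partner of Cntn2 and the longest gene of the set at 2241 kb, was measured at 66.0, 50.4, 77.3, 65.1 and 59.7 CPM across shNT replicates 1 to 5, and at 56.8, 78.5, 72.9 and 43.4 CPM across shRNA replicates 1 to 4. The groups covered nearly the same range, with means of 63.7 ± 9.81 CPM in shNT (SD, n = 5) and 62.9 ± 15.9 CPM in shRNA samples (SD, n = 4). Its log2 fold change was -0.02 (edgeR, standard error 0.19, FDR = 0.954), and the 95% interval ran from a fold of 0.742 to 1.31, within the study's 1.5-fold limit in both directions. With the trend with gene length removed it was -0.49 (FDR = 0.114, edgeR), and with reads outside exons as a covariate it was 0.28 (FDR = 0.142, edgeR).

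Cntnap4 (ENSMUSG00000031772, mm9 chromosome 8 from 115093943 to 115406617, plus strand), the member known from GABAergic terminals, was measured at 224, 63.9, 305, 202 and 130.3 CPM across shNT replicates 1 to 5, and at 131, 324, 276 and 96.1 CPM across shRNA replicates 1 to 4. Samples within a group differed up to 4.76-fold in shNT and 3.37-fold in shRNA. Among the 9495 genes averaging at least 10 CPM, 0.853% had a larger ratio in shNT and 3.65% in shRNA. The log2 fold change was 0.16 with a standard error of 0.44 (95% interval -0.81 to 1.13, FDR = 0.814, edgeR), so a difference of 1.5-fold either way was not detectable at this spread. Cntnap1 (ENSMUSG00000017167, mm9 chromosome 11 from 101031837 to 101052038, plus strand), the paranodal partner of Cntn1, had 53.2, 30.2, 59.7, 52.1 and 38.5 CPM and then 45.1, 55.8, 58.55 and 38.2 CPM in that order, a log2 fold change of 0.08 (95% interval -0.38 to 0.54, FDR = 0.804, edgeR). It is the only member whose exons share bases with another gene: 3.97% of them overlap Plekhh3 on the opposite strand, and the counting did not use strand.

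Several members were lowest in the sample of each group with the most reads outside exons. In Cntn1, Cntnap1, Cntnap2 and Cntnap4 alike, shNT replicate 2 was the lowest shNT sample and shRNA replicate 4 the lowest shRNA sample, the libraries with 18.6% and 27.2% of reads outside exons. shRNA replicate 1, with 19.8%, lay above shRNA replicate 4 in all 4 genes. In each of them it lay below the remaining shRNA samples, whose shares of reads outside exons were smaller. With that share as a covariate, the log2 fold change of Cntnap4 was 0.95 (FDR = 0.0975), that of Cntn4 0.84 (FDR = 0.0995) and that of Cntn1 0.64 (FDR = 0.103), and none was called (edgeR quasi-likelihood test). Dscam moved less, to 1.26 (FDR = 0.0958, edgeR). Without both libraries the log2 fold changes were 0.20 for Cntnap4, 0.23 for Cntn1, 1.14 for Dscam and 0.86 for Cntn3, and 0 members were called. No member was called without either library alone. Within the YTa31 set alone, the log2 fold changes of the members other than Dscam and Cntn3 were 0.54 for Dscaml1 (FDR = 0.542), 0.54 for Cntn5 (FDR = 0.530), 0.41 for Cntn4, 0.29 for Cntnap4, 0.19 for Cntn1, 0.13 for Cntnap1, 0.076 for Cntnap2 and -0.245 for Cntn6 (edgeR). In that set no member was called.

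Levels of several cell type markers also differed between these groups, mostly without a call, and their part in the members' levels was not tested. Over all genes tested, 57.9% had a log2 fold change above 0, 1.74% were called higher and 0.0133% lower. Counts above 0 among markers of other interneurons, DG granule cells and microglia were near that first share. Of 12 PV interneuron markers, 0 were called and all had a log2 fold change below 0, with a median of -0.35 and a summed level of 5302 to 8596 CPM in shNT and 3150 to 7596 CPM in shRNA samples. All 10 astrocyte markers had a log2 fold change above 0 (median 1.38, 0 called), and their sum was 1083 to 1533 CPM in shNT and 1420 to 5572 CPM in shRNA samples, highest in shRNA replicate 4. Oligodendrocyte markers (9 of 9 above 0, median 0.77, 0 called) summed to between 780 and 2422 CPM and between 1478 and 3071 CPM. Among 6 oligodendrocyte precursor markers 3 were called higher, with a median of 0.99 and sums of 47.2 to 82.6 CPM and 94.2 to 133 CPM. Of 9 markers of CA3 and CA2 pyramidal neurons 1 was called higher, with 7 above 0, a median of 0.68 and sums of 778 to 1699 CPM and 1752 to 2180 CPM. Markers of other interneurons were mixed, with 5 of 9 above 0, 1 called higher and a median of 0.56, while their sum ran from 573 to 942 CPM in shNT and from 383 to 749 CPM in shRNA samples. Without a call, 4 of 6 DG granule cell markers were above 0 (median 0.70, sums of 124 to 188 CPM and 167 to 181 CPM), 5 of 8 microglia markers (median 0.21, 69.8 to 124 CPM and 107 to 123 CPM) and 7 of 8 endothelial cell markers (median 0.50, 91.9 to 284 CPM and 57.3 to 758 CPM). All 7 nuclear-retained noncoding RNAs were above 0 (median 0.98, 0 called, 1673 to 15051 CPM and 3645 to 19020 CPM). No marker was at 0 in all samples. At an FDR under 0.1 and 1.5-fold, 12.7% of all genes were higher and 4.26% lower. Higher there were 8 of 10 astrocyte, 6 of 6 oligodendrocyte precursor, 6 of 9 pyramidal and 4 of 9 oligodendrocyte markers. So were 2 of 6 DG granule cell, 2 of 8 microglia, 1 of 9 other interneuron and 1 of 7 noncoding markers. Among endothelial and PV interneuron markers 0 were higher, and 1 PV interneuron marker was lower.

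Levels of different genes can be compared only per length of exon, and on that scale the family spanned a wide range in shNT samples. Normalized CPM per kb of exon were 29.8 ± 10.1 for Cntn1 and 29.5 ± 14.6 for Cntnap4 (SD, n = 5), then 8.87 ± 1.37 for Cntnap2 and 7.95 ± 2.06 for Cntnap1. Dscaml1 followed with 3.45 ± 1.93, Dscam with 2.01 ± 0.879 and Cntn4 with 1.54 ± 0.543. The lowest were Cntn3 with 0.871 ± 0.310, Cntn5 with 0.797 ± 0.252 and Cntn6 with 0.627 ± 0.259. Thus the paranodal contactin and the interneuron Cntnap4 stood highest, and the minor contactins lowest. Ranges of neighbours in this order overlapped in every case in shNT samples. Compared within each sample, most neighbours kept their order. In all 5 shNT samples Cntnap4 lay above Cntnap2, Cntnap2 above Cntnap1, Cntnap1 above Dscaml1, Dscaml1 above Dscam and Cntn4 above Cntn3. Dscam lay above Cntn4 and Cntn5 above Cntn6 in 4 of 5, Cntn1 above Cntnap4 in 3 and Cntn3 above Cntn5 in 2. The order of the means was the same in shRNA samples, where the ranges of Cntnap4 and Cntnap2, of Dscam and Cntn4, and of Cntn5 and Cntn6 did not overlap. With the length of the longest transcript in place of all exons, 5 of the 10 ranks moved, and Cntn4 then stood above Dscam in shNT samples.

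**Figure D3:**
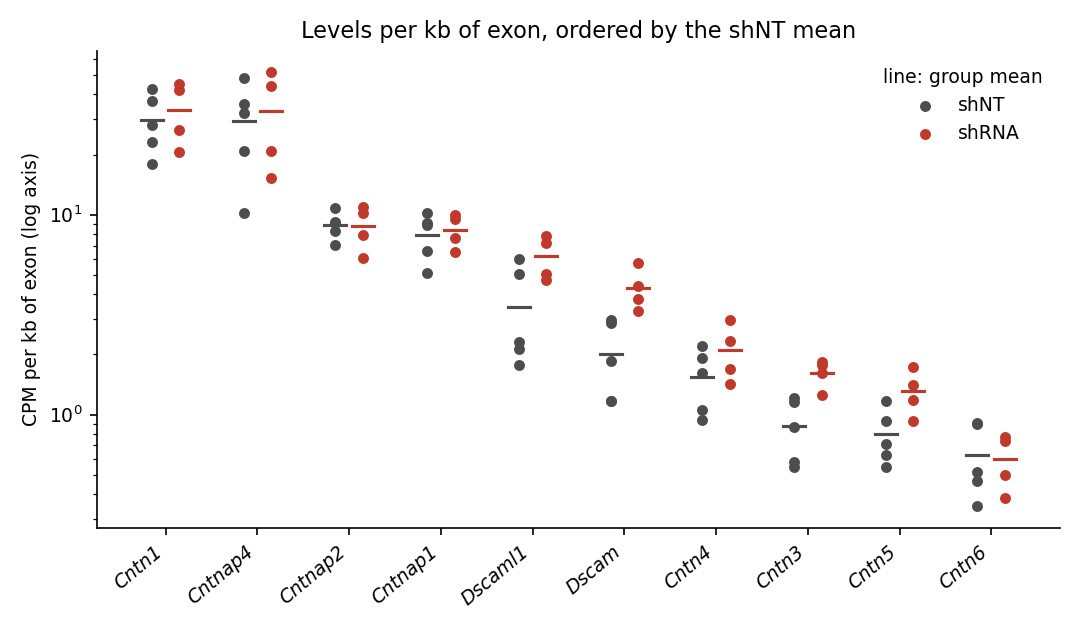
Normalized CPM per kb of exon (log axis) of each member in every sample, shNT and shRNA, in the order of the shNT means. Cntn1 and Cntnap4 lie highest, Cntn6 lowest, and neighbouring members overlap in shNT samples.

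Ratios of binding partners or paralogs within a sample do not depend on how a library was scaled, and they were compared for 6 pairs. No pair passed after adjustment over the 6 (exact two-sided permutation tests of the group labels, with a smallest possible p of 0.00794). The partners Cntnap2 and Cntn2 came closest. Their log2 ratio was 0.30, 0.55, 0.39, 1.21 and 0.91 in shNT replicates 1 to 5 and 0.25, 0.25, 0.05 and 0.03 in shRNA replicates 1 to 4, so that the shRNA samples all lay below the shNT samples, shRNA replicate 1 by little. The mean ratio was 0.67 ± 0.38 (SD, n = 5) and 0.15 ± 0.12 (SD, n = 4), a difference of -0.52 (exact permutation p = 0.0397, adjusted p = 0.238). Within the YTa31 set the difference was -0.22. Cntn2 itself, the juxtaparanodal contactin, had 41.4 ± 14.0 CPM in shNT (SD, n = 5) and 56.6 ± 13.5 CPM in shRNA samples (SD, n = 4).

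Among shNT samples the ratio of the paranodal partners Cntn1 and Cntnap1 varied least of the 6. Their log2 ratio lay between 2.34 and 2.75 in shNT and between 2.35 and 2.92 in shRNA samples, a mean difference of 0.07 (exact permutation p = 0.611, adjusted p = 0.619). Among shRNA samples the SD of this ratio was 0.26, above 0.12 for Cntnap2 over Cntn2 and 0.14 for Dscam over Dscaml1. Cntnap2 over Cntnap4 differed by -0.21 (exact permutation p = 0.619) and ranged widely, from -1.98 to -0.34 in shNT samples, with shNT replicate 2 highest. Dscam over Dscaml1 differed by 0.20 (exact permutation p = 0.238, adjusted p = 0.357), so these samples do not separate the paralogs, although only Dscam had groups without overlap. Among the contactin paralogs, Cntn3 over Cntn4 differed by 0.48 (exact permutation p = 0.214) and Cntn5 over Cntn6 by 0.75 (exact permutation p = 0.143), and both had an adjusted p of 0.357. The difference of Cntn3 over Cntn4 was 0.071 within the YTa31 set and 0.26 without shRNA replicate 4, and that of Cntn5 over Cntn6 was 0.81 and 0.41. Within the YTa31 set the other differences were 0.064 for Cntn1 over Cntnap1, -0.36 for Cntnap2 over Cntnap4 and 0.155 for Dscam over Dscaml1.

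**Figure D4:**
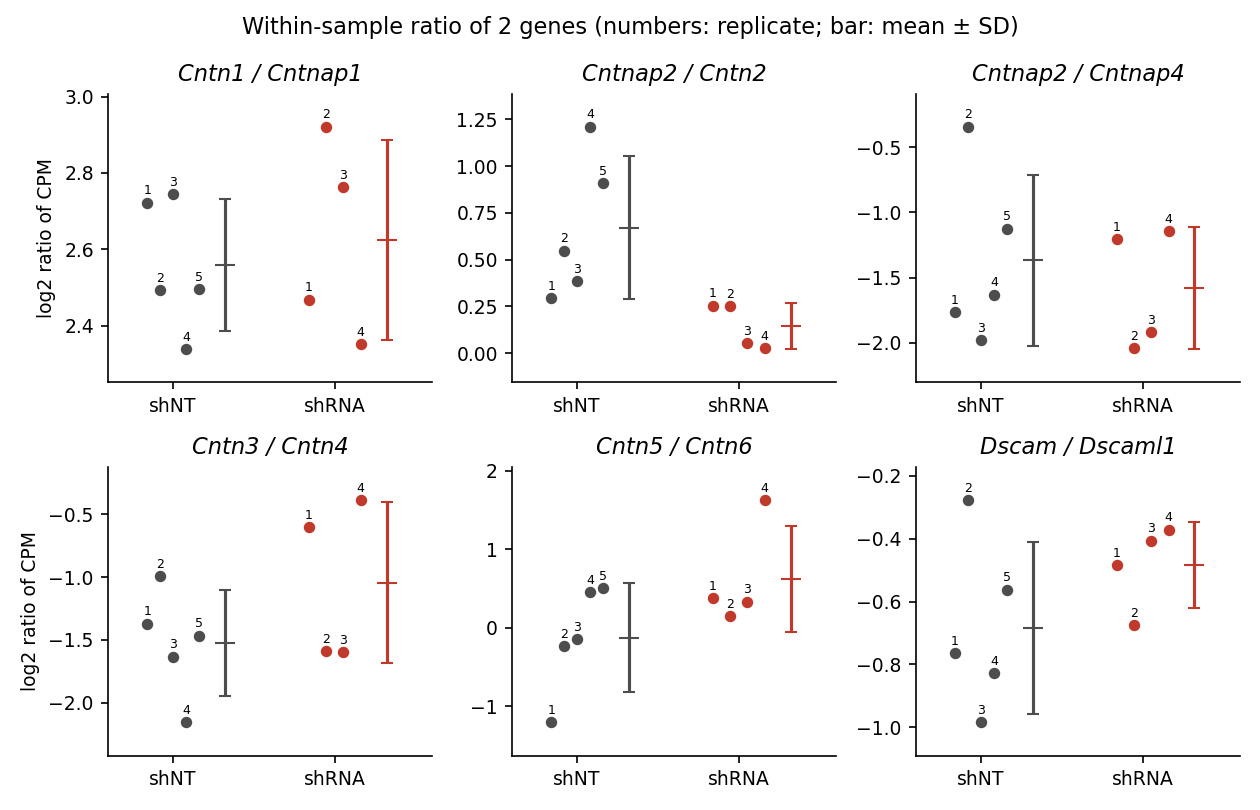
Log2 ratio of the 2 genes of each pair in every sample, with group mean and SD (5 shNT and 4 shRNA samples). Groups do not overlap for Cntnap2 over Cntn2 and overlap in the other 5 pairs.

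The other contactin and Cntnap genes and their known partners were taken as lists. Of 5 further family genes 1 was called, and it was higher in shRNA samples: Cntnap5c, from 10.03 ± 1.82 CPM in shNT (SD, n = 5) to 18.4 ± 3.06 CPM in shRNA samples (SD, n = 4), or 0.87 on the log2 scale (edgeR quasi-likelihood test, FDR = 0.0429). Its paralogs Cntnap5a and Cntnap5b had -0.03 and 0.13, and these similar genes can lose or exchange reads in alignment. Among 14 partners of Cntnap proteins 2 were called higher. Lgi1, a secreted protein that binds Adam22 at synapses, went from 37.7 to 70.6 CPM (log2 fold change 0.91, FDR = 0.0403, edgeR). Sptbn4, the spectrin of nodes and axon initial segments, went from 157 to 363 CPM (log2 fold change 1.21, FDR = 0.0497, edgeR). Log2 fold changes were above 0 in 11 of the 14, against 57.9% of all genes. The largest was that of Ank3, 1.30 (FDR = 0.0655, edgeR), without a call. The Kv1 channel genes Kcna1 and Kcna2 had -0.22 and 0.04, and Kcnab2 had -0.02, also without a call.

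Of 10 contactin ligands and partners on the same membrane 0 were called. The lowest p among those with a higher mean in shRNA samples was that of Ptprz1, a receptor phosphatase that binds contactins (log2 fold change 1.503, FDR = 0.0502, edgeR). Ptprz1 had 35.3 ± 11.8 CPM in shNT (SD, n = 5) and 100 ± 56.5 CPM in shRNA samples (SD, n = 4), a wide spread. Among those with a lower mean, the lowest p was that of App (log2 fold change -0.06, FDR = 0.885, edgeR). In the list of Dscam partners and related guidance genes 1 of 10 tested, Dcc, was called higher. This netrin receptor can act with Dscam. Dcc had 3.28 ± 1.16 CPM in shNT (SD, n = 5) and 11.9 ± 6.69 CPM in shRNA samples (SD, n = 4). Its log2 fold change was 1.86 (FDR = 0.0418, edgeR). Magi2 is split over several identifiers and was not tested. No gene of these lists was called lower, and over all genes tested 1.74% were called higher. In several alternatives 0 of all genes tested were called, so Cntnap5c, Lgi1, Sptbn4 and Dcc were not called there either. These included the YTa31 set alone, reads outside exons as a covariate, the gene length trend removed, and some fits with 1 sample left out. Median log2 fold changes were 0.32 for the family genes, 0.21 for the Cntnap partners, 0.61 for the contactin ligands and 0.68 for the Dscam list, against 0.31 for the 10 members and 0.11 for all genes tested.

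Likeness of pattern was measured for 3 members as the root-mean-square difference of log2 levels over the 9 samples, each gene centred on its mean, among 9494 other genes averaging at least 10 CPM. For Cntnap2 the nearest genes were Map2k4 (0.0461), Ecd (0.0600) and Ppp6r2 (0.0624), against a median of 0.343 over all genes searched. For Cntnap4 they included Mctp2 (0.196) and Btbd11 (0.210), against a median of 0.764. For Dscam they were Nptx1 (0.0974), which encodes a neuronal pentraxin, Rasgrp1 (0.125) and Mcm3ap (0.140), against 0.806. This measure scales with a gene's own spread, so values of different members are not compared. Genes measured in the same 9 libraries share their depth and composition, and these values are descriptions.

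Fold changes over all genes were higher in longer genes, and 9 of the 10 members are longer than 200 kb. Median log2 fold changes were -0.07 for genes under 20 kb, 0.15 for 20 to 50 kb, 0.32 for 50 to 100 kb and 0.41 for 100 to 200 kb. For genes of 200 to 500 kb the median was 0.43 (quartiles 0.04 and 0.94, 705 genes), and above 500 kb it was 0.42 (quartiles 0.06 and 0.96, 190 genes). Against genes of their own length, Dscam lay above the third quartile, Cntnap2 and Cntn6 lay below the first, and the other 7 members lay between the quartiles. In the class above 500 kb, which holds Dscam, 26.3% of genes had every shRNA sample above every shNT sample, and in the class of Cntn3 19.4% did. An unadjusted p under 0.05 with a higher mean in shRNA samples was found for 48.9% and 40.1% of the genes in these classes. With the trend with gene length removed in each sample, the log2 fold change was 0.73 for Dscam (FDR = 0.0872), 0.54 for Cntn3 (FDR = 0.127), 0.51 for Dscaml1 (FDR = 0.231), 0.23 for Cntn5 (FDR = 0.558) and 0.04 for Cntn4 (FDR = 0.927), all by the edgeR quasi-likelihood test, and 0 genes of all those tested were called.

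**Figure D5:**
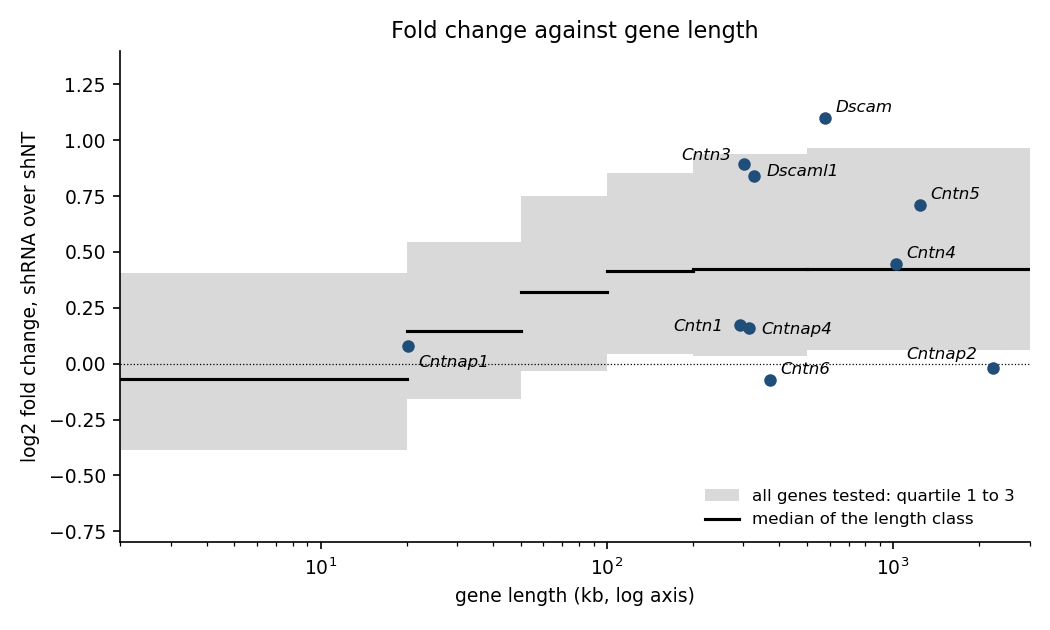
Log2 fold change (shRNA over shNT) of each member against its gene length in kb (log axis), over the median (line) and quartiles (grey) of all tested genes in 6 length classes, the outer classes drawn to the edge of the plot. Dscam lies above the grey band of its class, and Cntnap2 and Cntn6 lie below theirs.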

How the data were processed

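RNA sequencing of ribosome-associated RNA was deposited for 5 shNT and 4 shRNA samples. Libraries were made with the SMARTer v4 kit from RNA with a RIN above 8 and read at 50 bases. Per the study's methods, STAR placed the reads on the mm9 transcriptome and HTSeq 0.6.0 assigned those with a unique place to genes, ignoring strand, and the authors deposited the raw counts of each sample. The annotation was not given in the sources used here, and positions, lengths and names came from GENCODE of the same build, which named 37205 of 37620 identifiers. Lines for reads outside exons, ambiguous reads (1.36% to 1.78% of uniquely aligned reads) and multiple alignments were kept out of library sizes and tests.

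A gene was tested where any 1 sample reached 1 CPM, taking as a minimum the CPM value whose sign is missing in the study's methods. edgeR 4.0.16 in R 4.3.3 fitted TMM-normalized counts of all 9 samples (quasi-likelihood test, condition only), with a call at an FDR under 0.05 and 1.5-fold. Alternatives used edgeR's likelihood ratio and exact tests, DESeq2 1.42.0, limma 3.58.1 (voom), other normalizations and filters, blocks, covariates, length corrections and samples left out. Ratios used log2 CPM with a prior count of 2. Named genes were all members, Pvalb, Ablim3 and the genes called in the fixed lists (where none was, the lowest p in each direction). The 3 nearest patterns of Cntnap2, of Cntnap4 and of the member with the lowest p were also named. Cntn2, Cntnap5a, Cntnap5b, Kcna1, Kcna2, Kcnab2 and Ank3 were named after their values were seen. Members and lists were chosen with earlier results of these data known. A gene that this rule names is not reported here. The fits were tested on simulated counts. No replicate pair agreed within sampling noise.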

Additional observations from a re-analysis of the deposited data

Results flagged for a closer look

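In shRNA replicate 4 the log2 ratio of Cntn5 to Cntn6 was 1.62, far above the other shRNA samples, which lay between 0.15 and 0.38. This sample had the highest level of Cntn5 in either group (7.80 CPM) and the lowest of Cntn6 among the shRNA samples (2.48 CPM). It also had 27.2% of reads outside exons, the largest share of all samples, and the part of that share in the ratio was not tested. The pair's difference between groups was 0.75 with this sample and 0.41 without it. The search for such samples covered 32 groups of values and found only this 1, and chance alone would give about 1.6.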

How the results depend on the processing

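Dscam, Cntn3, Dscaml1, Cntn5 and Cntn4 kept a positive log2 fold change in all 24 alternatives, with ranges of 0.73 to 1.59, 0.51 to 1.04, 0.51 to 1.32, 0.23 to 0.82 and 0.04 to 0.84. Calls depended on the test. Members called numbered 2 with edgeR's likelihood ratio test, 2 with its exact test and 2 with DESeq2 (Cntn3 and Dscam in each), 5 with limma voom (also Cntn4, Cntn5 and Dscaml1), 1 with the name set as a block (Dscam), and 0 to 2 with each sample left out in turn, 2 only without shNT replicate 1, which of these fits also called the most genes. Genes called among all tested numbered 264, and 2230, 2193, 2365 and 2919 with those 4 tests. They numbered 377 with the name set as a block, 515 with no filter, 34 with the replicate block, 680 without shNT replicate 2 and shRNA replicate 4 together, and 0 with library size only, with filterByExpr, within the YTa31 set, with reads outside exons as a covariate, and with the trend with gene length or exon length removed. With each sample left out they ranged from 0 to 1417.

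Members near 0 changed sign, and the cause was not tested. Cntnap2 was 0.14 with limma voom, 0.01 with library size only, 0.076 within the YTa31 set, 0.063 without those 2 samples and 0.28 with the covariate, and ranged from -0.17 to 0.11 with each sample left out. Cntn6 was 0.35 with limma voom, 0.04 without those 2 samples and 0.25 with the covariate, and ranged from -0.30 to 0.091. Cntn1 was -0.01 with the replicate block, -0.19 with the gene length trend removed and -0.22 with the exon length trend removed, and ranged from -0.022 to 0.345. Cntnap1 was -0.05 with the replicate block and -0.18 with the exon length trend removed, and ranged from -0.087 to 0.179. Cntnap4 was -0.087 with the replicate block, -0.009 with the name set block, -0.198 and -0.095 with the gene and exon length trends removed, and ranged from -0.14 to 0.41. With each sample left out, the ratio of Cntnap2 to Cntnap4 ranged from -0.363 to 0.046, and that of Cntn1 to Cntnap1 from -0.032 to 0.158. The order of levels moved by 5 ranks with the longest transcript and by 0 to 4 with an shNT sample left out. Replicate numbers did not pair the samples (correlations of same-numbered samples between -0.64 and 0.49), and the replicate block called 0 members.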
